A study of Mus musculus with 6 samples.

Results

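Transcript levels in untreated Ba/F3 cells carrying the ETV6-PDGFRB oncogene were compared with those in untreated Ba/F3 cells carrying the empty pMSCV vector. Ba/F3 is a mouse blood cell line, labelled as pro-B, that depends on interleukin 3 (IL3) for growth. The ETV6-PDGFRB cells had been selected for growth without IL3 and received neither IL3 nor drug, and the vector cells had IL3 and received no drug. Each side was measured on 1 Affymetrix mouse array, so the comparison uses 2 of the 6 arrays in the series. The other 4 arrays, printed beside them, are ETV6-PDGFRB cells given 100 nM imatinib (Glivec) for 4 h, FIP1L1-PDGFRA cells without and with imatinib, and IL3-grown vector cells with imatinib. All 3 lines carried a pMSCV construct and were grown in DMEM with 10% serum. Whether a line was 1 clone or a pool is not given in the sources used here. IL3 supply, selection and the fusion gene all differed between the sides of the comparison and cannot be told apart.

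The receptor for platelet-derived growth factor beta, PDGFRB, is a tyrosine kinase at the cell surface that is normally switched on by its ligand. In the human fusion protein the ETV6 part joins the molecules to each other, so that the kinase is active without ligand and drives STAT, ERK and PI3K signalling. IL3 acts through another route, in which its receptor chains switch on the kinase JAK2 and the transcription factor STAT5. Interferons signal through JAK kinases and transcription factors that bind short DNA elements in promoters and switch on antiviral proteins, large GTPases and the machinery that presents peptides on MHC class I.

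Signals are the authors' MAS5 intensities, for which a floor was set at 20.1, the 50th percentile of the arrays. A log2 ratio of ETV6-PDGFRB over vector was taken where at least 1 of the pair exceeded the floor, which left 6790 of the 12393 genes on the array. Where 1 of the arrays lay under the floor, the fold can only be bounded and is given as at least that many times. Genes were called at a limit of 2-fold. With 1 array per side no test is possible, no value has a replicate error, and precision is limited by the single array behind each number.

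The genes that stood apart furthest belong to families that interferons control, and 4 of their promoters are shown as examples with several matches to the interferon elements. Bst2, Gbp7 and Oas1a held the most among the called GTPase and antiviral genes, 3 each. Gbp3 held 2, as did other genes such as Irgm1, Igtp and Ifit1, and was taken from that tie by alphabetical order. Capitals mark matches to 2 motifs. The first is GAAA, any 2 bases and GAAA again, the core of the interferon-stimulated response element (ISRE). The second is TTCNNNGAA, the gamma-activated site (GAS) that STAT proteins bind. Both strands were searched, so an ISRE match on the other strand reads as TTTC, any 2 bases and TTTC, while the GAS motif reads alike on both strands. Each sequence runs 5′ to 3′ in the direction of the gene over 300 bases, 250 before and 50 from the annotated start, and comes from RefSeq on GRCm38.p6. The Bst2 window lies at chr8:71537423-71537722 on the minus strand, Gbp7 at chr3:142530086-142530385 on the plus strand, Oas1a at chr5:120907476-120907775 on the minus strand and Gbp3 at chr3:142559794-142560093 on the plus strand.
Bst2: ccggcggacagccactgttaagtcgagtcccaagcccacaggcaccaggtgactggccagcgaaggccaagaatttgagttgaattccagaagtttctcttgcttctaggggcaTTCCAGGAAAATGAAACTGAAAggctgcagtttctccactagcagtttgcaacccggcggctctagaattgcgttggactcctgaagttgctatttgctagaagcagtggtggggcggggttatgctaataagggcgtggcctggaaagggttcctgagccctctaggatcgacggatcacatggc
Gbp7: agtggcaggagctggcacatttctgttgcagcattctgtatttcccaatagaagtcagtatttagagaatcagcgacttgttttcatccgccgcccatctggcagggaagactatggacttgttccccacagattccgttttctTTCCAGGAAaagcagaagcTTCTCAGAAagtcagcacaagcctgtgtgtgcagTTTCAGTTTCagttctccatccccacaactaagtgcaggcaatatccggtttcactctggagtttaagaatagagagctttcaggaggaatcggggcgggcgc
Oas1a: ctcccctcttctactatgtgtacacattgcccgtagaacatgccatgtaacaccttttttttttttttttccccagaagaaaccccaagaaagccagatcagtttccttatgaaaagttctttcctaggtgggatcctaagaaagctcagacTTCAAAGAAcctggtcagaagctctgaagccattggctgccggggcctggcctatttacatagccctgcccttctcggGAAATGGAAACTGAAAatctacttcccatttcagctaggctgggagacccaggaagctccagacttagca
Gbp3: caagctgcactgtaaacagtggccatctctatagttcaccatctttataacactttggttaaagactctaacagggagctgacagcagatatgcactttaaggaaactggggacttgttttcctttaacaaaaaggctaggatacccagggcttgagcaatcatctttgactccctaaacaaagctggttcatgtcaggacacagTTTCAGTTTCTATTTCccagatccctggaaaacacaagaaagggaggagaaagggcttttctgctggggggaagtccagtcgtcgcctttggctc

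In Bst2 the ISRE matches began 130 and 124 bases before the start, and the GAS match began at 136, so that these matches share bases. The Oas1a ISRE matches began 20 and 14 bases before the start and overlap each other. In Gbp3, whose 2 matches began at 45 and 39 bases before the start, they also overlap. Some genes have several such windows, and a gene was counted if any of them held a match. Of 122 genes called higher with a promoter in the table, 30 held the ISRE core, which is 24.6%, against 4.03% of 5634 measured genes and 3.99% of all 27025 genes in the table. It was found for 7 of 8 called GTPase genes, 9 of 20 called antiviral genes, 2 of 8 called MHC class I genes and 12 of 86 called genes in none of these 3 lists. The GAS motif was held by 16.4% of the genes called higher, against 8.27% of measured genes. Among 38 genes called lower with a promoter, 0 held the ISRE core and 2 held the GAS motif. A match describes the sequence, and binding was not measured.

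Of 6790 genes with a ratio, 152 (2.24%) were at least 2-fold higher in ETV6-PDGFRB cells and 50 (0.736%) were at least 2-fold lower. Scaling to the hybridization controls, which moves the median of all genes by -0.11 on the log2 scale, gave 131 higher and 67 lower. The lower count moved most with the treatment of dim signals, to 97 with the floor at the 40th percentile, 31 at the 60th and 28 with a pseudocount of 20 and no floor, and the higher counts were then 218, 113 and 126. The higher genes also lay further out, with 52 past 4-fold, 23 past 8-fold and 10 past 16-fold, while 2 of the lower genes passed 4-fold. Of the higher genes 53 were under the floor on the vector array, and of the lower genes 8 were under it on the ETV6-PDGFRB array. Among the 6394 genes above the floor on both arrays, 99 were higher and 42 were lower. At the limit itself, Gadd45b and Dnase1l1 lay just inside with a log2 ratio of 1.02 each, Plekha5 and Sgcb just outside at 0.998, Smoc1 inside at -1.01 and Slc2a3 outside at -0.997.

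**Figure D1:**
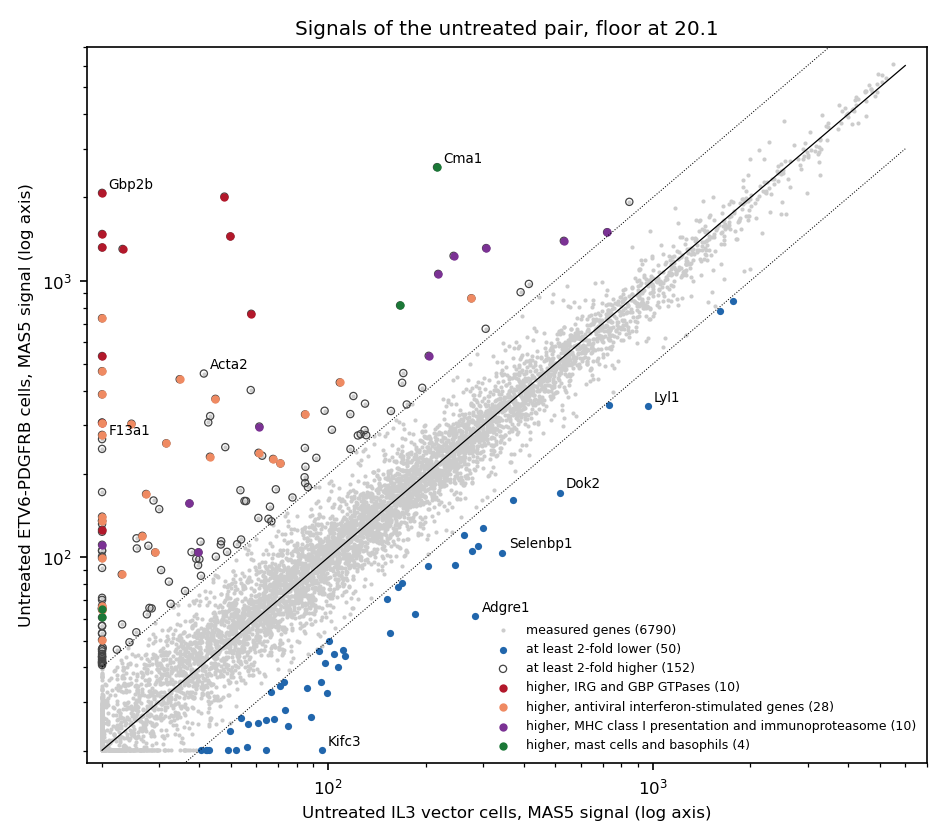
Signals of 6790 genes in untreated ETV6-PDGFRB cells (vertical, log axis) and untreated IL3-grown vector cells (horizontal, log axis), with signals under the floor of 20.1 drawn at it. The solid line marks equal signals and the dotted lines 2-fold, and of the 152 called genes above them 48 belong to the 3 interferon lists.

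The vector cells with and without imatinib are the nearest thing to a repeat in these data, since neither array holds a fusion gene. Their log2 ratios had an SD of 0.195 over 6674 genes with a ratio, against 0.474 over 6790 in the untreated ETV6-PDGFRB and vector pair. In that IL3 pair 5 genes (0.0749%) were at least 2-fold higher with imatinib and 4 (0.0599%) lower. Of the 152 higher genes, 110 had a ratio in the IL3 pair and 1 of them, Mpnd, passed 2-fold there, with signals of 64.1 with imatinib and 11.9 without. The untreated ETV6-PDGFRB signal lay above the imatinib-treated vector array for 151 of the 152 higher genes. It lay below that array for 50 of the 50 lower genes. The calls were made against the untreated vector array, which lay close to the treated one, so these counts were largely set by the calls. Array quality was alike on the pair, with an actin 3' to 5' ratio of 1.13 in ETV6-PDGFRB cells and 1.19 in vector cells, and 50.4% and 49.9% of probe sets above the floor.

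The immunity-related GTPases (IRG) and guanylate-binding proteins (GBP), which interferon gamma induces and which attack the vacuoles of intracellular parasites, held the largest ratios. Of 11 on the array, 10 had a ratio and all of these were called higher, with a median log2 ratio of 5.13 against 0.02 over all genes. Of the 10, 6 had a ratio through the ETV6-PDGFRB array alone, and the 4 above the floor on both arrays, Ifi47, Igtp, Gbp7 and Irgm1, were all past 8-fold. Gbp8 was under the floor on both arrays. Genes within the GBP family are related in sequence, as are those within the IRG family. How far the probe sets of a family detect each other was not tested.

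Gbp2b read 2078 in ETV6-PDGFRB cells and 5.58 in vector cells, at least 104-fold higher and the largest ratio of the 6790. Gbp2 read 1320 and 5.14 on the same arrays, and Iigp1, an IRG that loads onto parasite vacuoles, read 1476 and 11.3. For these 3 genes the vector signal lies below the floor, so the true ratio may be larger than the bound. Ifi47, an IRG above the floor on both arrays, read 1303 in ETV6-PDGFRB cells and 23.2 in vector cells, 56.1-fold higher. Igtp read 2015 against 47.8, 42.1-fold higher, and Gbp7 read 1447 against 49.9, 29.0-fold higher. Irgm1, which regulates the other IRG proteins, read 760 against 57.9 and was 13.1-fold higher. On the other vector array, with imatinib, these 4 genes read 24.0, 36.4, 60.5 and 58.4, so the vector arrays lay close to each other and far below the fusion array.

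Antiviral interferon-stimulated genes formed the largest of the 3 interferon lists. Of 38 on the array 35 had a ratio, of which 28 were called higher and 0 lower, with a median log2 ratio of 1.96. Among the 20 above the floor on both arrays, 15 were called higher, with a median of 1.93. Rtp4, which encodes a chaperone that also limits viruses, read 732 in ETV6-PDGFRB cells and 0.939 in vector cells, at least 36.5-fold higher. Oasl2, a relative of the oligoadenylate synthetases that sense double-stranded RNA, read 471 against 6.18, at least 23.5-fold higher. Zbp1, a sensor of Z-form nucleic acids that can start cell death, read 388 against 2.06, at least 19.3-fold higher. Ifit1, which binds viral RNA ends, read 307 against 1.97, and Usp18, a protease that removes ISG15 and dampens interferon receptor signalling, read 277 against 10.4. These 5 genes lay under the floor on both vector arrays and above it on both untreated fusion arrays.

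Members above the floor on both arrays gave measured ratios of the same direction. The ADP-ribosyltransferase genes Parp9 (441 in ETV6-PDGFRB cells, 34.8 in vector cells) and Parp14 (304 and 24.7) were 12.6-fold and 12.3-fold higher. Isg20, an RNA exonuclease gene, read 374 against 44.9 and was 8.34-fold higher. Oas1a read 429 against 109, a log2 ratio of 1.98, and the tetherin gene Bst2, whose product holds virus particles at the cell surface, read 239 against 60.9, a log2 ratio of 1.97. The 7 measured members that were not called included Eif2ak2, the RNA-dependent kinase PKR (180 against 91.1), Ifitm3 (2767 against 2200) and Ifitm1 (2920 against 3264). Ifitm1 had the only negative ratio of the list, -0.16. The members named in this and later paragraphs that fall outside the naming rule were chosen after their values were seen.

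**Figure D2:**
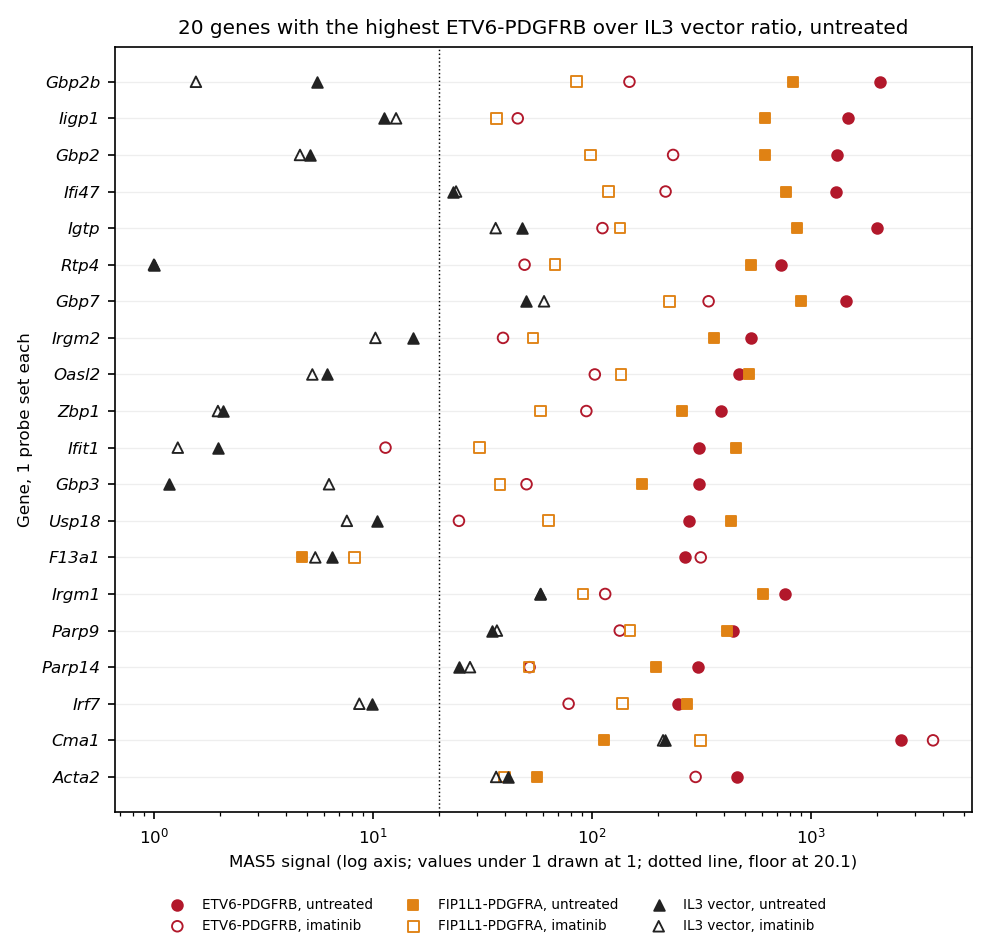
MAS5 signal (log axis) of the 20 genes with the highest untreated ETV6-PDGFRB over vector ratio among genes with a signal of at least 100 on the brighter array, 1 point per array. The red filled circles lie right of the black triangles for each gene, and for F13a1, Cma1 and Acta2 the open red circles lie far right of both orange squares.

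Genes for MHC class I peptide presentation were higher by smaller ratios. Some of these rested on bright signals, while in vector cells Erap1 read 37.3 and Tapbpl read 15.1, under the floor. Of 16 measured 10 were called higher and 0 lower, with a median log2 ratio of 1.39, and 9 of the 10 were above the floor on both arrays. Psmb9, Psmb8 and Psmb10 encode the catalytic subunits that turn the proteasome into the immunoproteasome. Psmb10 read 1059 in ETV6-PDGFRB cells and 218 in vector cells, 4.86-fold higher, Psmb9 read 1312 against 307, 4.28-fold higher, and Psmb8 read 1394 against 532, a log2 ratio of 1.39. The peptide loading genes followed the same direction, with Tapbp (tapasin) at 1230 against 243, 5.06-fold higher, and the transporter gene Tap2 at 535 against 204, 2.63-fold higher. Tap1, the partner of Tap2, read 297 against 61.3, 4.85-fold higher, but its other measured probe set gave a log2 ratio of 0.11. Erap1, which trims peptides in the endoplasmic reticulum, read 157 against 37.3, 4.20-fold higher.

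The classical MHC class I chains stayed under 2-fold, while H2-M3, a non-classical heavy chain, read 104 in ETV6-PDGFRB cells and 39.8 in vector cells, 2.62-fold higher. B2m, the shared light chain, read 2748 in ETV6-PDGFRB cells and 2000 in vector cells, a log2 ratio of 0.46, H2-D1 read 1946 against 1429, at 0.45, and H2-K1 read 110 against 67.1, at 0.71. Pdia3 and Calr, general folding helpers that also serve peptide loading, had log2 ratios of 0.10 and 0.01. Among 5 measured MHC class II genes H2-Oa and Ctss were called higher and 0 lower, while H2-Aa, H2-Ab1, H2-Eb1 and the class II activator Ciita were under the floor on both arrays. The call of Ctss ended with the floor at the 60th percentile, at a log2 ratio of 0.01, and that of H2-Oa with the pseudocount, at 0.97. The median of the class II list was 0.99 as reported, 0.20 with the 60th percentile and 0.19 with the pseudocount, where members under the floor enter.

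Among STAT and IRF factors, 4 of 11 measured were called higher and 0 lower, against 2.24% and 0.736% of all measured genes. Of the 10 above the floor on both arrays 3 were called. Irf7, which drives interferon gene expression, read 247 in ETV6-PDGFRB cells and 9.93 in vector cells, at least 12.3-fold higher. Irf1, a factor induced by interferon gamma, read 403 against 57.7, 6.98-fold higher. Irf9 and Stat2, which encode parts of the complex on the interferon-stimulated response element, read 149 against 30.1 and 108 against 25.7, 4.96-fold and 4.19-fold higher. Stat3 had a log2 ratio of 0.87, whereas Stat5a (124 against 121), Stat6 and Irf3 had log2 ratios between 0.03 and 0.16.

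Interferon genes and receptors gave few calls. Ifng and Ifnb1 were under the floor on both arrays. Of 8 measured receptor and kinase genes 1 was called higher, the interferon gamma receptor chain gene Ifngr1, at 81.7 in ETV6-PDGFRB cells and 32.3 in vector cells, 2.53-fold higher. That call ended with the floor at the 60th percentile and with the pseudocount, at log2 ratios of 0.94 and 0.96. Its partner chain Ifngr2 read 42.4 against 46.8, and the type I receptor genes Ifnar1 and Ifnar2 had log2 ratios of -0.04 and 0.04. Jak2 read 159 against 93.2, a log2 ratio of 0.77, and Jak1 and Tyk2 had ratios of -0.07 and 0.14.

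Other higher genes encode inflammatory and signalling proteins. Of 12 measured cytokine and chemokine genes 4 were called higher and 1, Ltb, lower. With the floor at the 60th percentile the calls of Cxcl11 and Csf1 ended, at log2 ratios of 0.75 and 0.68. With the pseudocount those of Csf1 and Ltb ended, at 0.74 and -0.94. Cxcl10 and Cxcl11, ligands of the chemokine receptor CXCR3, read 91.6 against 1.42 and 71.4 against 0.770, at least 4.56-fold and 3.56-fold higher in ETV6-PDGFRB cells. Lif, a cytokine of the interleukin 6 family, read 161 in ETV6-PDGFRB cells and 28.9 in vector cells, 5.55-fold higher. Casp1, the protease that matures interleukin 1 beta, read 324 against 43.2, 7.50-fold higher, and its neighbour Casp4 read 233 against 62.5, a log2 ratio of 1.90. Of 14 measured NF-kappaB targets 4 were called higher and 0 lower, against 2.24% higher over all measured genes. The calls of Cxcl10, also counted above, and Nfkbie came through the ETV6-PDGFRB array alone. Among the 12 targets above the floor on both arrays 2 were called. These were the adhesion gene Icam1 (114 against 46.8, 2.45-fold) and the inhibitor gene Nfkbia (671 against 305, 2.20-fold). The call of Nfkbie ended with the floor at the 60th percentile and with the pseudocount, at log2 ratios of 0.04 and 0.70. Nfkbia had 4 measured probe sets with log2 ratios of 0.60 to 1.17. Bcl2l11, which encodes the cell death protein BIM, read 338 against 156, 2.17-fold higher, with log2 ratios of 0.56 to 1.29 over its 5 probe sets.

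Outside the 3 interferon lists 104 genes were called higher, and several of those with the largest ratios are also known to respond to interferon. Nmi, which binds STAT proteins, read 308 in ETV6-PDGFRB cells and 42.7 in vector cells, a log2 ratio of 2.85. Ube2l6, the enzyme that carries ISG15 to its targets, read 124 against 15.7, at least 2.62 higher on the log2 scale. Batf2, a leucine zipper factor gene, read 172 against 14.4, at least 3.10 higher. Trafd1, which restrains immune receptor signalling, read 250 against 48.1, a log2 ratio of 2.38. These 4 genes had treated and FIP1L1-PDGFRA ratios above 1 where measured, apart from Batf2, which was under the floor on both treated arrays. Mov10, an RNA helicase that restricts retroviruses, read 90.0 against 30.5, and Samhd1, which breaks down nucleotides and so limits them too, read 289 against 103, with log2 ratios of 0.09 to 1.59 over its 4 measured probe sets. Cd274, which encodes the checkpoint ligand PD-L1, read 93.7 against 39.7, a log2 ratio of 1.24, and stood at -0.81 between the treated arrays.

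Genes of other functions were also among the 104. Tgm2, a protein cross-linking enzyme gene, read 909 in ETV6-PDGFRB cells and 391 in vector cells, 2.32-fold higher, and its 5 measured probe sets gave log2 ratios of 0.80 to 1.29. Scin, which severs actin filaments, read 1929 against 847, a log2 ratio of 1.19. Nampt, the NAD salvage enzyme gene, read 410 against 195, at 1.08, and was -0.31 between the treated arrays. Gsta4, a glutathione transferase gene, read 98.8 against 39.2, at 1.34, and P2rx4, an ATP-gated channel gene, read 277 against 131, at 1.08. The log2 ratios of these last 2 genes were 1.99 and 1.94 between the treated arrays, above their untreated ratios.

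A second group of higher genes had far lower signals in FIP1L1-PDGFRA cells. Cma1, a chymase gene of mast cells, read 2574 in untreated ETV6-PDGFRB cells and 3615 with imatinib, 113 and 313 in FIP1L1-PDGFRA cells without and with imatinib, and 216 and 211 in vector cells. Cpa3, the mast cell carboxypeptidase gene, read 814 and 1060 in ETV6-PDGFRB cells, 94.7 and 168 in FIP1L1-PDGFRA cells, and 166 and 164 in vector cells. Both ETV6-PDGFRB arrays thus exceeded all 4 other arrays for these proteases, and the untreated FIP1L1-PDGFRA array lay below both vector arrays. Mcpt8, a basophil protease gene, and Hdc, which makes histamine, were called higher as well, at 60.7 against 16.8 and 64.9 against 7.50, at least 3.02-fold and 3.23-fold.

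The mast cell and basophil list had 17 members on the array and 8 with a ratio, 4 of them called higher and 0 lower, with a median log2 ratio of 1.16. Of the 8, 3 had a ratio through the ETV6-PDGFRB array alone, and over the 5 above the floor on both arrays 2 were called and the median was 0.29. With the floor at the 60th percentile Hdc and Mcpt8 had log2 ratios of 0.61 and 0.51, which ended both calls, and the list's median was 0.51, while with a pseudocount of 20 it was -0.11. Its summed signal over members was 4986 in untreated ETV6-PDGFRB cells and 1946 in untreated vector cells, and Cma1 alone gave 2574 of the 4986. The defining receptor genes Kit, Fcer1a and Ms4a2 and the tryptase genes Tpsb2 and Tpsab1 were under the floor on both arrays, and Gata2 read 567 against 743. In RNA from a bulk culture, more cells of a type and more RNA per cell cannot be told apart. A part of mast cell-like cells in these values was not tested.

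Further genes also had higher signals on both ETV6-PDGFRB arrays than on the other 4 arrays. F13a1, the A chain of blood clotting factor XIII, read 268 and 314 in ETV6-PDGFRB cells without and with imatinib and 4.73 to 8.26 on the other 4 arrays. Acta2, smooth muscle actin, read 462 and 298 in ETV6-PDGFRB cells, 56.2 and 39.8 in FIP1L1-PDGFRA cells, and 41.3 and 36.5 in vector cells, 11.2-fold higher in the untreated pair. Rhag, an ammonium channel gene of red cells, read 132 and 98.5 in ETV6-PDGFRB cells, 29.8 and 32.6 in FIP1L1-PDGFRA cells, and 12.3 and 9.31 in vector cells. Acta2 was the only called member of the fibroblast list, in which 10 of 14 members, the collagen genes Col1a1, Col1a2 and Col3a1 among them, were under the floor on both arrays. Lmo2, a blood progenitor factor, read 186 against 84.8, 2.19-fold higher, and was the only call among 4 measured stem cell markers.

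Genes lower in ETV6-PDGFRB cells were fewer, and the list of lymphoid receptor-proximal signalling genes held 3 of them among 18 measured, with 0 higher. Dok2, an adaptor that dampens RAS signalling downstream of tyrosine kinases, read 171 in untreated ETV6-PDGFRB cells and 516 in vector cells, a 3.01-fold lower level. It was 82.6 in imatinib-treated ETV6-PDGFRB cells, 223 and 197 in FIP1L1-PDGFRA cells, and 545 in imatinib-treated vector cells, so all 4 fusion arrays lay under both vector arrays. Lat, the T cell and mast cell adaptor gene, read 128 against 301, 2.35-fold lower, and Zap70, a kinase of T cells, read 25.1 against 60.6, 2.41-fold lower. Zap70 lost its call with the floor at the 60th percentile and with the pseudocount, at -0.51 and -0.84. The adaptor genes Fyb (110 against 288) and Tyrobp (44.0 against 112), outside that list, were 2.63-fold and 2.56-fold lower. In contrast Ptpn6, a phosphatase of the same list, had a log2 ratio of 0.89.

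Adgre1, the macrophage surface gene known as F4/80, read 61.4 in ETV6-PDGFRB cells and 284 in vector cells, 4.63-fold lower. With imatinib it was 46.2 in ETV6-PDGFRB cells and 305 in vector cells, while FIP1L1-PDGFRA cells read 270 and 174. Among 22 myeloid markers on the array 15 were under the floor on both arrays, 7 had a ratio and Adgre1 was the only call. Their summed signal was 1177 in ETV6-PDGFRB cells and 1836 in vector cells. Fcgr3, an Fc receptor gene, read 604 against 954, and Spi1, the myeloid factor PU.1, read 95.4 against 150, with log2 ratios of -0.66 and -0.65.

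Most measured glycolysis and hypoxia response genes had small negative ratios. Of 22 measured, 2 were called lower, 0 higher, and 18 had a negative ratio (81.8%, against 47.0% of all 6790 genes), with a median of -0.39 against 0.02 over all genes. The other 20 were under 2-fold. Pdk1, a kinase that inhibits pyruvate dehydrogenase, read 32.4 in ETV6-PDGFRB cells and 99.4 in vector cells, 3.07-fold lower. Its 2 measured probe sets, however, gave log2 ratios of -1.62 and -0.53. Bnip3, a hypoxia-induced mitophagy gene, read 93.5 against 246, 2.63-fold lower. The glucose transporter gene Slc2a3 read 636 against 1269, and the glycolytic enzyme genes Pgam1 (808 against 1551), Pkm (1746 against 2565) and Ldha (2082 against 2986) had log2 ratios of -0.94, -0.55 and -0.52. Hk2, which encodes the enzyme of the first step, was on the other side at 247 against 164, and Hif1a had a log2 ratio of 0.07. Fam162a, another gene induced by hypoxia, read 776 against 1606, 2.07-fold lower.

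Several transcription factor and metabolic genes were also lower. Lyl1, a helix-loop-helix factor of blood progenitors, read 352 in ETV6-PDGFRB cells and 964 in vector cells, 2.74-fold lower. Id2, which blocks such factors, read 62.6 against 185, 2.95-fold lower, and Zfpm1, the GATA1 partner FOG1, read 356 against 733, 2.06-fold lower. Selenbp1, which encodes a methanethiol oxidase, read 104 against 344, 3.31-fold lower, and its 2 probe sets gave -1.59 and -1.72. Kifc3, a minus-end motor gene, read 17.0 against 95.3 and was at least 4.75-fold lower, the lowest ratio of the 6790. Of 17 lower genes with several measured probe sets, 3 had probe sets of opposite sign, among them Mtm1 with -1.07 and 0.04.

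Lower genes with smaller signals included surface receptors and channels of blood cells. P2rx1, an ATP-gated channel gene, read 26.4 in ETV6-PDGFRB cells and 88.5 in vector cells, a log2 ratio of -1.75. Aqp9, a channel for water and glycerol, read 26.1 against 67.9, at -1.38, and Kcnn4, a potassium channel gene, read 33.8 against 86.1, at -1.35. Ung, which removes uracil from DNA, read 24.6 against 75.0, at -1.61, and the clock gene Arntl read 20.6 against 56.3, at -1.45. Of these 5, P2rx1 and Aqp9 were also past 2-fold lower between the treated arrays, at -1.20 and at least -2.10, and the other 3 were not. The receptor genes P2ry14 (121 against 262) and Adgrg1 (93.3 against 204) were 2.17-fold and 2.18-fold lower, with treated ratios of -0.81 and -0.41.

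**Figure D3:**
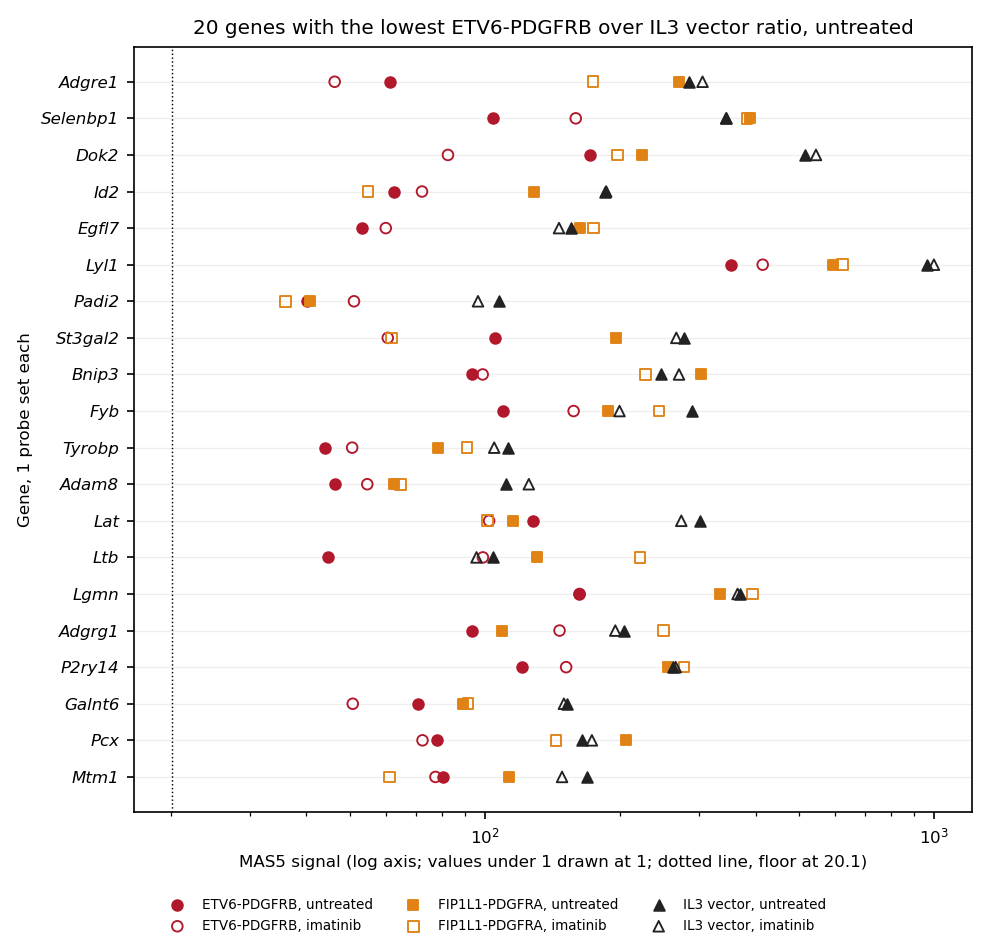
MAS5 signal (log axis) of the 20 genes with the lowest untreated ETV6-PDGFRB over vector ratio among genes with a signal of at least 100 on the brighter array, 1 point per array. The red filled circles lie left of both black triangles for each gene, while the orange squares of FIP1L1-PDGFRA lie close to the triangles for genes such as Selenbp1, Egfl7, Bnip3, Lgmn and P2ry14.

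Most measured STAT5 targets and the IL3 receptor genes stayed under 2-fold on the pair, with IL3 supplied to the vector cells only. Of 18 measured STAT5 targets, 2 were called higher (Lif and Socs1) and 1 lower (Id2), with a median log2 ratio of -0.10. Over all 6790 genes 2.24% were called higher and 0.736% lower, smaller shares than in this list. The other 15 targets were under 2-fold. Cish, a feedback inhibitor that STAT5 induces, read 284 in ETV6-PDGFRB cells and 309 in vector cells, Pim1, a survival kinase gene, read 356 against 341, and the cyclin gene Ccnd2 read 788 against 858. Socs1, a feedback inhibitor of JAK kinases, was 2.50-fold higher, at 213 against 85.0. Bcl2l1, the survival gene for BCL-XL, read 79.1 against 129, a log2 ratio of -0.70, and Id1 read 267 against 418, at -0.65. The IL3 receptor genes Il3ra (42.1 against 39.5), Csf2rb (1616 against 1193) and Csf2rb2 (2010 against 1530) had log2 ratios of 0.09, 0.44 and 0.39, and Il3 itself was under the floor on both arrays.

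Growth-related lists held few calls and had medians near the level of all genes, though some leaned to negative ratios. Myc read 656 in ETV6-PDGFRB cells and 724 in vector cells, and of 10 measured MYC network genes 0 were called. Of 47 nucleolar ribosome biogenesis genes 0 were called, but 40 (85.1%, against 47.0% of all genes) had a negative ratio, with a median of -0.19. Of 20 measured polyamine and nucleotide synthesis genes 0 were called, but 18 (90%) had a negative ratio, with a median of -0.22. Dusp6, a phosphatase that ERK induces, read 373 against 281, and the 9 measured ERK feedback genes had a median log2 ratio of -0.02 with 1 call, Phlda1, which was lower. Among 31 E2F and G1/S genes 1 was called lower (Ccne2), and among 34 G2/M genes 0 were called, with medians of -0.08 and 0.13. With the floor at the 60th percentile Phlda1 had a log2 ratio of -0.41 and Ccne2 of -0.65, and with the pseudocount -0.77 and -0.72, so both calls ended. Of 24 housekeeping genes, 31 ribosomal protein genes and 40 oxidative phosphorylation genes 0 were called, with medians of 0.05, 0.01 and -0.02.

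**Figure D4:**
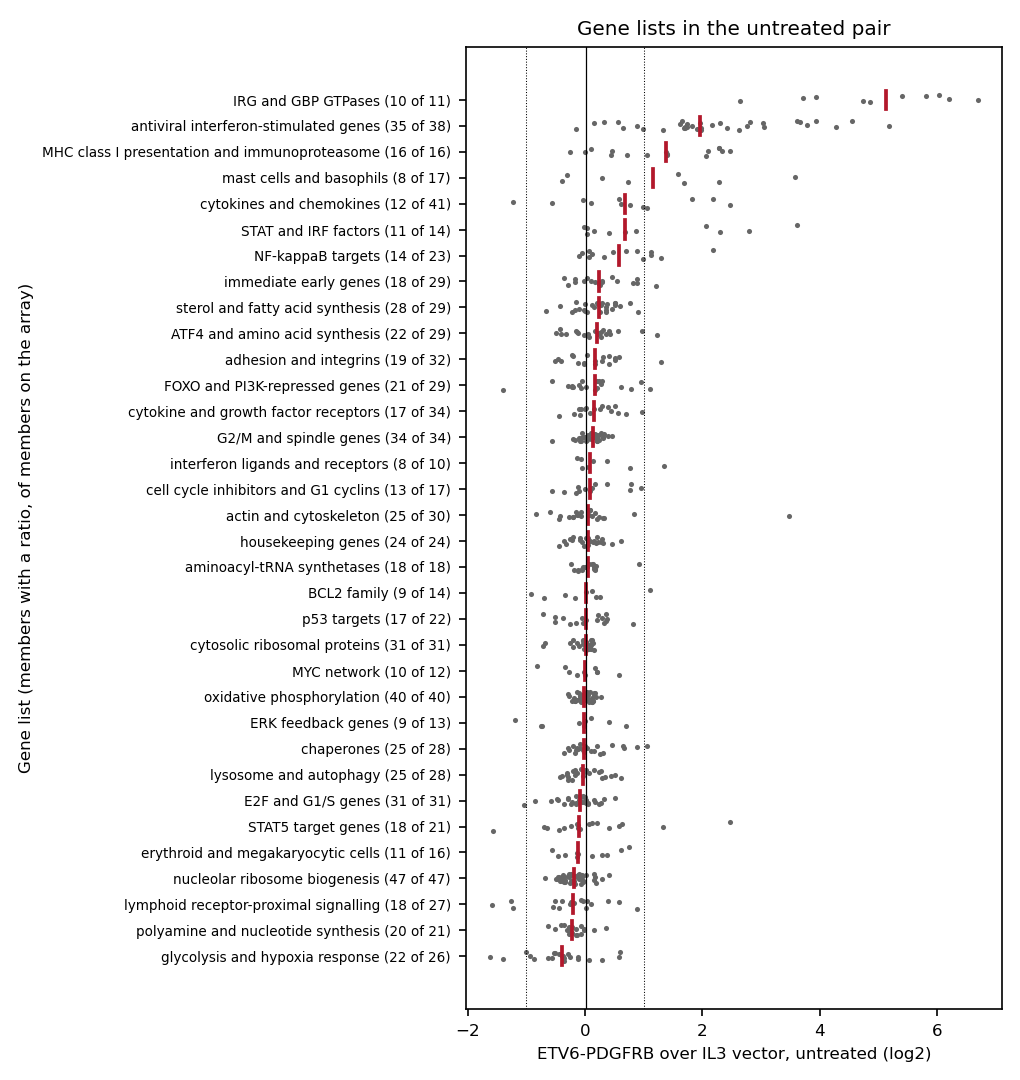
Log2 ratios of ETV6-PDGFRB over vector, untreated, in the 34 lists with at least 8 measured members, 1 dot per gene and a bar at each median, with ratios held at the floor included. The 3 interferon lists have medians of 5.13, 1.96 and 1.39, and the bars of the growth and metabolic lists lie between -0.39 and 0.24.

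The pro-B label was checked against B lineage markers. Of 16 B lineage markers on the array 10 were under the floor on both arrays, namely Pax5, Ebf1, Vpreb1, Rag1, Rag2, Ms4a1, Blnk, Cd24a, Dntt and Cd22, and of the 6 with a ratio 0 were called. Cd79a read 42.6 in ETV6-PDGFRB cells and 38.9 in vector cells, and Cd79b read 67.5 against 49.6. Of 11 measured erythroid and megakaryocytic markers 0 were called, with Gata1 at 407 against 373 and Tal1 at 832 against 917. Of 3 measured T and NK cell markers 1, Zap70, was called. The mouse homologs of the kinase parts, Pdgfra and Pdgfrb, were under the floor on both arrays, and it is not known if these probe sets read the human fusion transcript, so they check no label.

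The imatinib-treated arrays of the same lines share no array with the untreated pair. Between them 303 of 6846 genes (4.43%) were at least 2-fold higher in ETV6-PDGFRB cells and 255 (3.72%) at least 2-fold lower. Of the 152 genes higher without drug, 137 had a ratio there, and 81 (59.1%) were past 2-fold the same way, 55 (40.1%) were under 2-fold and 1 was past 2-fold the opposite way. Those 81 are 26.7% of the 303. When signals were scaled by hybridization controls instead, 51 higher genes and 38 lower ones were past 2-fold the same way. Of the 50 lower genes, all with a ratio there, 25 (50%) were past 2-fold the same way, 25 under 2-fold and 0 opposite, and those 25 are 9.8% of the 255.

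The groups differed in how their ratios stood between the treated arrays. The median log2 ratio of the GTPase list was 1.62 with imatinib and 5.13 without, that of the antiviral list 1.14 and 1.96, and that of the MHC class I list 1.05 and 1.39. The treated medians cover 9 of the 10 GTPase and 29 of the 35 antiviral genes, the others being under the floor on both treated arrays, and over those 9 and 29 the untreated medians were 5.40 and 1.98. Iigp1 read 45.9 in treated ETV6-PDGFRB cells and 12.8 in treated vector cells, a log2 ratio of at least 1.19, while without drug it was at least 73.5-fold higher. Usp18 read 24.7 and 7.60, close to the floor. Ifit1 and Cxcl10 lay under the floor on both treated arrays. By contrast Gbp2 read 235 against 4.65 and Ifi47 217 against 24.0 with imatinib, log2 ratios of at least 3.55 for Gbp2 and of 3.18 for Ifi47, and Psmb9 read 1477 against 318, at 2.21 with drug and 2.10 without.

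The mast cell proteases Cma1 and Cpa3, and the genes F13a1 and Acta2, had ratios of similar size with imatinib and without. The log2 ratio was 4.10 with and 3.57 without imatinib for Cma1, 2.69 and 2.29 for Cpa3, at least 3.97 and 3.74 for F13a1, and 3.03 and 3.48 for Acta2. Papss2, Cxcr4 and Ifngr1 had larger ratios with imatinib than without. Papss2, which makes the sulphate donor of the cell, read 198 against 11.5 with imatinib and 106 against 8.56 without. Its 3 measured probe sets gave untreated log2 ratios of 0.21 to 2.44. Cxcr4, a chemokine receptor gene, read 826 against 129 with imatinib and 360 against 130 without, log2 ratios of 2.68 and 1.47. In FIP1L1-PDGFRA cells Cxcr4 read 725 with imatinib and 138 without. Ifngr1 read 193 against 34.0 with imatinib, a log2 ratio of 2.51, and had 1.34 without. Casp1 had a log2 ratio of 2.55 with imatinib, with signals of 274 and 46.8. In FIP1L1-PDGFRA cells Casp1 read 170 with imatinib and 208 without. Genes near equality between the treated arrays included Ifi35 (97.5 against 89.4), Samhd1 (82.8 against 99.0) and Tgm2 (543 against 458), whose log2 ratios were 0.12, -0.26 and 0.25.

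Socs1 was the gene that stood on opposite sides. It read 8.16 in treated ETV6-PDGFRB cells, under the floor, and 76.7 in treated vector cells, at least 1.93 lower on the log2 scale. Several genes under 2-fold without drug were past 2-fold lower with it. With imatinib Cish read 56.4 against 297, Pim1 75.4 against 314, Id1 50.4 against 417, Dusp6 73.9 against 290 and Myc 232 against 722. Among the lower genes Dok2 (82.6 against 545), Adgre1 and St3gal2 (60.7 against 266) had ratios of -2.72, -2.72 and -2.13 with imatinib. Ltb (98.8 against 95.7) and Zap70 (87.8 against 52.1) were not lower there.

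**Figure D5:**
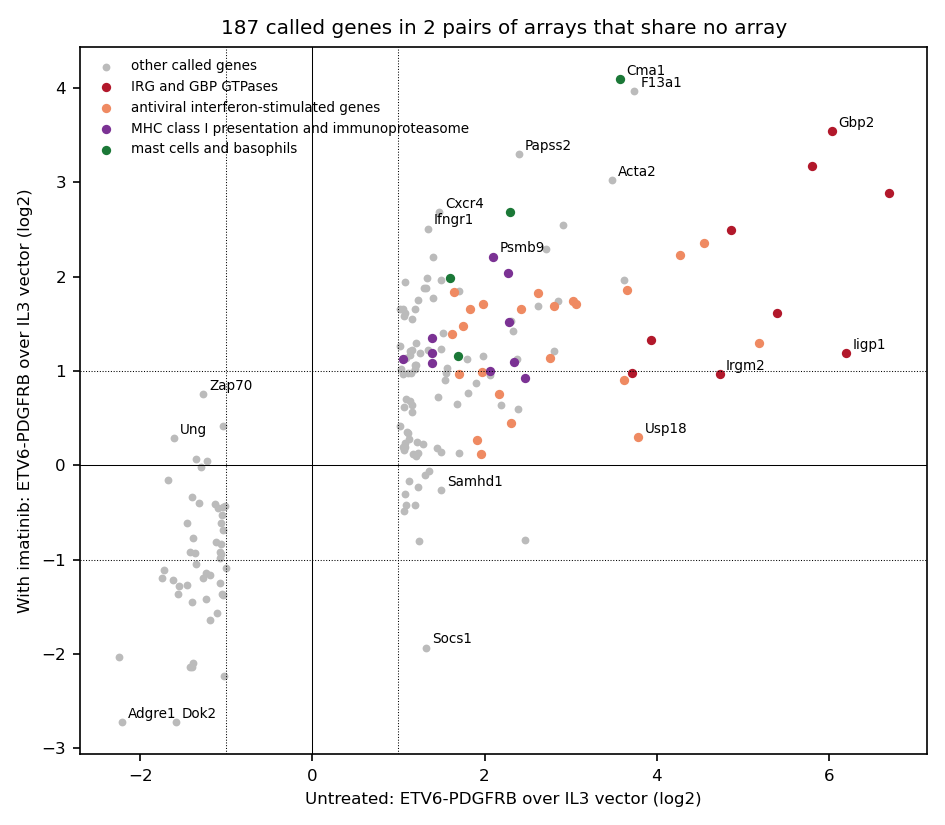
Log2 ratio of ETV6-PDGFRB over vector with imatinib (vertical) and without (horizontal) for the 187 called genes with both ratios, from 4 arrays of which none is shared, with ratios held at the floor drawn at their bound. The GTPase genes lie far right with a treated ratio of 0.97 to 3.55, Cma1 lies near equal ratios, and Socs1 lies alone in the lower right field.

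Untreated FIP1L1-PDGFRA cells were set against the imatinib-treated vector array, so that no array is shared with the untreated ETV6-PDGFRB pair. In that pair 116 of 6723 genes (1.73%) were called higher and 27 (0.402%) lower. Of the 152 genes higher in ETV6-PDGFRB cells 145 had a ratio there, and 84 (57.9%) were past 2-fold the same way, 61 under 2-fold and 0 opposite, the 84 being 72.4% of the 116. The 10 measured GTPase genes and the 28 called antiviral genes were all past 2-fold in FIP1L1-PDGFRA cells too, as were 8 of the 10 called MHC class I genes. The list medians were 4.37, 2.48 and 1.06 in this pair.

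Among members, Gbp2b read 832 in untreated FIP1L1-PDGFRA cells, Igtp 861 and Ifi47 771, each below the untreated ETV6-PDGFRB value and above both vector arrays. Ifit1 read 457 and Usp18 433 in untreated FIP1L1-PDGFRA cells, above the ETV6-PDGFRB values of 307 and 277. Rsad2, which encodes the antiviral enzyme viperin, had a log2 ratio of at least 1.33 in ETV6-PDGFRB cells and at least 3.65 in this FIP1L1-PDGFRA pair. The mast cell list stood otherwise, with a median of -0.65 over 6 measured members and log2 ratios of -0.90 for Cma1 and -0.79 for Cpa3. These differences between the fusion lines rest on 1 array each and were not tested.

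The lower genes were set against the same FIP1L1-PDGFRA pair. Of the 50, 6 (12%) were past 2-fold the same way in the FIP1L1-PDGFRA pair, 43 (86%) were under 2-fold and 1 was opposite, the 6 being 22.2% of the 27. Dok2, Lat and Padi2 were among the 6, with log2 ratios of -1.29, -1.25 and -1.24. Selenbp1 (389 in untreated FIP1L1-PDGFRA cells), Egfl7 (163) and Bnip3 (303) had ratios of 0.18, 0.16 and 0.16, and the glycolysis list had a median of -0.08. Phlda1, a gene that growth factors induce, read 24.9 in ETV6-PDGFRB cells, 167 in FIP1L1-PDGFRA cells, and 56.7 and 62.6 on the vector arrays, and was the opposite one.

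Some genes called higher lie beside each other in the genome. In the RefSeq gene order 16 runs of adjacent measured genes were called higher throughout, and they held 39 of the 152 genes, while no such run was found among the 50 lower genes. The longest were Gbp7, Gbp3, Gbp2b and Gbp2 on chromosome 3 and Psmb9, Tap1, Psmb8 and Tap2 on chromosome 17. Others were Irgm1, Gm12185 and Ifi47 and the pair of Igtp and Irgm2 on chromosome 11, Ifit2, Ifit3 and Ifit1 on chromosome 19, Oas2, Oas3 and Oas1a on chromosome 5, Casp1 and Casp4 on chromosome 9, and Fos and Jdp2 on chromosome 12. Fos was under the floor in vector cells. Its call ended with the floor at the 60th percentile and with the pseudocount, at log2 ratios of 0.13 and 0.84. Families such as GBP, IFIT and OAS arose from copies of 1 gene side by side, so their members are not independent of each other.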

How the data were processed

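Total RNA (5 µg per sample, per the labels' protocols) was labelled with biotin and hybridised to Affymetrix mouse arrays, 1 per line and treatment. The deposited values are MAS5 intensity signals on a linear scale, made by the authors with GCOS 1.4.0, per the submitters' processing notes. The sources used here give no detection calls. The mean signal trimmed by 2% at each end was 99.99 on every array, so the arrays share 1 scale and a total change in RNA per cell would not show.

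Of 22690 probe sets, 20393 had 1 gene symbol in the platform annotation, 691 several and 1606 none. Control probe sets numbered 64. For each gene the probe set of highest average log2 signal across the 6 arrays was kept. Signals below the floor, 20.1, were set to it, and log2 ratios were taken in the order fusion over vector (Python 3.11.15, numpy 2.4.6, pandas 2.3.3, matplotlib 3.10.9). The ratio and count steps were tested on simulated data. No p-value was computed, because each group held 1 array. The files name no genome build, so gene positions from RefSeq served only for gene order and for the promoters, which carry their own build.

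The members and lists were chosen with earlier results of these data known. The 42 lists (35 pathway, 7 marker) held 1117 entries, of which 969 matched a gene, and some genes stand in more than 1 list. Genes are named as the 20 highest and 20 lowest ratios with a brighter signal of at least 100, up to 8 called members per list with a set of IL3 and fusion pathway genes, and, among called genes with such signals, the 10 in each direction with the largest treated ratio the same way and the 10 with the treated ratio nearest to 0. The floor, scale, probe set rule, pseudocount, fold limit and vector array were varied.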

Additional observations from a re-analysis of the deposited data

Results flagged for a closer look

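Socs1 and Phlda1 had ratios past 2-fold on opposite sides in pairs of arrays that share no array. Socs1 had a log2 ratio of 1.32 in untreated ETV6-PDGFRB over vector cells and of -1.93, held at the floor on the fusion side, in the imatinib-treated pair. Phlda1 had a log2 ratio of -1.19 in untreated ETV6-PDGFRB over vector cells and of 1.42 in untreated FIP1L1-PDGFRA over imatinib-treated vector cells. These differences rest on single arrays and were not tested.

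Probe sets that the gene counts leave out held differences as well. Of 428 measured probe sets annotated with several gene symbols, 16 were at least 2-fold higher in ETV6-PDGFRB cells and 5 lower, and of 508 with no symbol, 18 were higher and 4 lower. Their genes are not named here.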

How the results depend on the processing

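The counts and list medians above were recomputed under other settings. The count of higher genes was 113 to 218 over floors, scalings, probe set rules and the other vector array, and the lower count passed 1.5 times only with the floors and the pseudocount: 97 lower genes with the floor at the 40th percentile, 31 at the 60th and 28 with a pseudocount of 20 and no floor. A limit of 1.5-fold gave 435 higher and 232 lower, and a limit of 3-fold gave 74 and 8. Lower genes past 2-fold the same way between the treated arrays numbered 39 with the 40th percentile, 15 with the pseudocount and 38 with hybridization control scaling, which gave 51 higher ones. In the FIP1L1-PDGFRA pair, lower genes the same way numbered 3 with the 60th percentile and 2 with the pseudocount. The median of the GTPase list was 4.90 with the 60th percentile and 4.39 with the pseudocount, that of the antiviral list 2.41 with the 40th percentile, 1.67 with the 60th and 1.70 with the pseudocount, and that of the MHC class I list 1.18 with the pseudocount. The mast cell list had a median of 1.16 as reported, of 0.51 with the 60th percentile and of -0.11 with the pseudocount, where members under the floor enter the median. Of the 152 higher genes 132 were still called against the imatinib-treated vector array, 131 with hybridization control scaling, 141 with the median over probe sets, which ended the call of Bcl2l11, 115 with the pseudocount and 113 with the 60th percentile. Of the 50 lower genes 26 were still called with the pseudocount, 31 with the 60th percentile and 37 against the imatinib-treated vector array, where Fyb, Zfpm1, Bsg, Mtm1 and Smoc1 were among those under 2-fold. Signals near the floor limit the ratios, and genes under it on both arrays have none. No paired analysis was possible because each group holds 1 array.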
